A study of Mus musculus with 8 samples.

Results

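The mouse expression array used here carried 16194 probes that its files name only by a genomic interval and a strand (for example chr17:32044823-32045974_R), with no gene. These probes lay in 4610 regions of build mm9. Members were chosen by signal: the scanner software had to call a probe well above background on 4 or more arrays out of 8, of either genotype. Probes with the same interval and strand were grouped into 1 region. This gave 4072 member probes (25.15% of the region probes) in 2092 regions (45.38% of the regions). The choice used the detection calls of all 8 arrays, so the detection counts below are a description. The regions are of the kind designed for long intergenic noncoding RNAs, and all 16194 probes have identifiers of the same series of the array maker (A_30_P). The files hold no gene class, no gene name and no probe sequence for them, so that class could not be checked, and they are called unannotated regions here. No annotation of build mm9 was used, so which genes lie in or beside a region is not given.

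Long intergenic noncoding RNAs are transcripts without a long open reading frame, made from DNA between protein-coding genes and often capped, spliced and polyadenylated. Many are restricted to a few tissues and present at low levels, and the known ones act on chromatin, on neighbouring genes, or as binding partners of proteins and small RNAs. In the vessel wall, H19, Malat1 and Meg3 are among those studied in smooth muscle and endothelium. Fto encodes an enzyme that demethylates adenosines of RNA and is widely expressed.

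RNA came from thoracic aorta of 4 Fto -/- and 4 Fto +/+ samples, to ask how the loss of Fto affects expression in the vessel. Both genotypes had the same mixed C57BL6J/NMRI background and no treatment is named, so the groups differ in the Fto allele alone as far as the labels say. RNA had an integrity number above 8, and each sample was read with 1 dye (Cy3) on its own array. The labels do not say how the Fto allele was made, nor whether the samples came from separate animals, so p-values measure only the spread between these samples. In bulk tissue, fewer cells of a type and less RNA per cell cannot be told apart.

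The free-text description of each sample names the opposite genotype to its title and genotype field, and the groups used here follow the latter. Fto was 8.52-fold lower in the samples titled Fto -/-, at -2.35 ± 0.24 against 0.75 ± 0.22 (SD, n = 4 each; log2 intensity relative to the 75th percentile of the array). The log2 difference was -3.09 ± 0.15 (SE; limma adjusted p = 0.000367; exact two-sided permutation p = 0.0286, the smallest that 4 against 4 can give). The labels call all mice male, whereas Xist was well above background on 8 of 8 arrays and the probes of Ddx3y, Kdm5d, Eif2s3y and Zfy1 on 0. One of the Uty probes was above background on 1 array (Fto +/+ replicate 3). The 10 smooth muscle, 10 endothelial and 10 fibroblast markers were above background on all 8 arrays. The mean level of 14 T cell and thymocyte markers, centred per gene, lay between -1.25 and 1.82 in Fto -/- and between -1.77 and 1.65 in Fto +/+ samples. It was high on Fto -/- replicates 1, 3 and 4 and on Fto +/+ replicate 2, the 4 arrays with Rag1, a lymphocyte recombinase, above background. Brown adipocyte markers (10 genes) lay between -0.22 and 1.59 in Fto -/- and between -1.42 and -0.15 in Fto +/+ samples. White adipocyte markers (10 genes) lay between -0.16 and 1.17 and between -1.45 and 0.63. None of the 11 T cell, 9 brown adipocyte and 8 white adipocyte genes that were tested passed the genotype test. All arrays lay on 1 slide: Fto -/- replicates 1 to 3 and Fto +/+ replicate 1 in its first row, the others in its second row. The 75th percentile of processed intensity was 262.4 to 367.4 per array.

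Most unannotated region probes gave no signal in the aorta. Of the 16194 probes, 10181 were well above background on 0 arrays and 3130 on all 8. The latter made up 76.87% of the members. The members just inside the rule, 236 probes on exactly 4 arrays, had a median intensity of 39.58, and the 256 probes just outside it, on 3 arrays, had 34.05. Among the other 39487 probes of the array, 53.73% met the same rule. Member intensities had a median of 114.3 and ran from 40.03 at the 5th to 2234 at the 95th percentile. Since probes differ in how well they bind, levels of different probes or regions are not set against each other. Only 1 region probe was saturated, on 1 array. Across member probes, the correlation between any pair of arrays lay between 0.9449 and 0.976.

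Detection leaned to Fto -/-. The share of region probes above background was 25.29% to 27.95% per Fto -/- array and 24.31% to 25.15% per Fto +/+ array, so the groups did not overlap. Over all probes of the array it was likewise 45.56% to 47.77% against 44.49% to 45.21%. More Fto -/- than Fto +/+ arrays detected 554 members, fewer detected 191, and 3327 were detected on the same number. The matching counts over all probes tested were not made, so this lean is not shown to be particular to the regions. In 19 members all 4 Fto -/- arrays and 0 Fto +/+ arrays were above background, and 2 members showed the reverse. Such members entered only through the genotype in which they are high. They make up 13 of the 64 probe calls given below (11 higher and 2 lower).

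The members were spread over 20 chromosomes. The share of regions that were members ran from 35.96% on chromosome X to 53.8% on chromosome 11, and 1020 member regions lay on the forward strand (F), 1071 on the reverse strand (R) and 1 had no strand. Regions were 62 to 533972 bp long, with a median of 11422 bp for members and 9835 bp for the rest. Of the member regions, 1102 had 1 member probe, 430 had 2, 350 had 3 and 210 had more, up to 10. In 589 regions every designed probe was a member. The chance to be a member followed the design: 28.55% of regions with 1 designed probe were members and 70.07% of those with 6 to 10. Per probe the share was 28.55% and 26.7% in these classes, so a region with more probes had more occasions to meet the rule. The array also tiles some loci more than once, and 766 member regions overlap another member region on the same strand.

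The unannotated regions were called about as often as the rest of the array. By limma, with p-values adjusted over all 25288 probes tested and a threshold of 0.05, 45 member probes were higher and 19 lower in Fto -/- samples, 1.572% of the 4072. Over all probes tested, 1.69% were called, 0.834% higher and 0.858% lower. Among the 21216 other probes, 166 were higher and 198 lower (1.716%). The median log2 difference, Fto -/- minus Fto +/+, was 0.038 over members and -0.035 over the other probes. With the 75th percentile taken only over probes above background on all arrays, 53 member probes were higher and 17 lower, over all probes the calls went from 211 higher and 217 lower to 273 and 153, and the median over all probes from -0.024 to 0.043. Positive differences were also the more frequent among other dim probes. Below an intensity of 64 the median difference was 0.051 over 1080 members and 0.093 over 2143 other probes. From 64 to 256 it was 0.046 over 1821 members and 0.027 over 5431 other probes. From 256 to 1024 the signs differed, at 0.026 over 771 members and -0.035 over 5648 other probes. Above 1024 it was -0.016 over 400 members and -0.076 over 7994 other probes. These intensity classes were chosen after the values were seen.

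Averaged per region, 20 regions were higher and 11 lower in Fto -/- samples, 1.482% of 2092. Over all 19844 identifiers tested the same way, 1.76% were called, 0.862% higher and 0.897% lower. The genotypes did not overlap in 170 regions (8.126%), against 12.5% over all identifiers, and the 31 called regions were all among them. Of the called regions, 8 rose and 1 fell by more than 2-fold. The fitted difference of chr4:114631940-114632618_R was also past 2-fold, but its fall is known only as at least 1.67-fold. Among the 8, the sizes for chr17:29183003-29217681_R and chr6:129151512-129208737_R rest largely on probes above background on 0 or 1 of 4 Fto +/+ arrays. The smallest called rise was 0.55 and the smallest called fall -0.55 on the log2 scale. Among the 20 that rose, 7 rested on 1 member probe, and in 6 of the other 13 every member probe passed on its own. Among the 11 that fell, 7 rested on 1 probe, and in 1 of the other 4 every probe passed. Called regions lay on 14 of the 20 chromosomes.

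**Figure D1:**
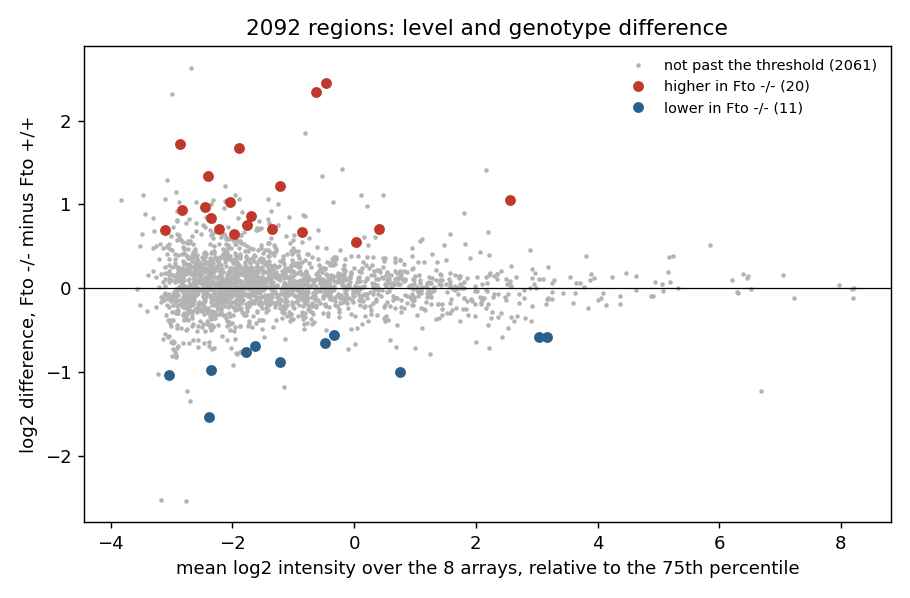
Mean log2 intensity over the 8 arrays (x axis, relative to the 75th percentile of each array) against the log2 genotype difference (y axis, Fto -/- minus Fto +/+) for 2092 regions; each point is a region, red and blue where limma's adjusted p was under 0.05. The 20 higher and 11 lower regions lie in the lower and middle part of the range of levels, and several uncalled regions have larger differences than called ones.

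The number called rested on single arrays. Without Fto +/+ replicate 4, 59 regions were higher and 17 lower (396 and 323 of all 19844 identifiers, against 171 and 178 with it), and without any one of the other 7 arrays 7 to 13 were higher and 1 to 5 lower. All 31 passed without Fto +/+ replicate 4, and 12 of them in none of the other such fits. With slide row as a block, 6 regions were higher and 0 lower, 5 of them among the 31. Over all 19844 identifiers, 24 were higher and 10 lower with this block. Within slide row 1 and within slide row 2, where 1 genotype has 1 sample, all 31 kept their direction. Without the 4 arrays with Rag1 above background, which leaves 1 Fto -/- against 3 Fto +/+ samples, all 31 kept their direction. As the genotypes did not overlap in any of the 31, these directions were fixed in advance and show nothing about slide row or T cells. With 1 sample in a genotype, the number passing does not tell whether a call holds. What part the T cell, adipocyte, skeletal and cardiac muscle, macrophage or slide row differences have in the calls was not tested.

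In 7 of the 31 regions the call held in each of the 8 fits that left out 1 array; 6 were higher in Fto -/- and 1 lower. The largest called rise was in 2 nested regions on the reverse strand of chromosome 17. Region chr17:32044823-32045974_R, 1152 bp with 3 probes, had levels of 0.32, 0.40, 0.43 and 0.99 in Fto -/- replicates 1 to 4 and -1.87, -1.43, -2.38 and -1.55 in Fto +/+ replicates 1 to 4. It was 5.08-fold higher in Fto -/-, a log2 difference of 2.34 ± 0.23 (SE; limma adjusted p = 0.006). Its 3 probes gave 2.19, 2.36 and 2.49, each past the threshold on its own. The surrounding region chr17:32035750-32056000_R, 20251 bp with 2 probes of its own, had levels of 0.45, 0.54, 0.79 and 1.25 in Fto -/- and -1.75, -1.17, -2.50 and -1.35 in Fto +/+ replicates. It was 5.46-fold higher (2.45 ± 0.30, adjusted p = 0.0106), and its probes gave 2.42 and 2.47. So 5 separate probes at this locus rose by 2.19 to 2.49 on the log2 scale, with no overlap between genotypes. The next region on that strand, chr17:32075308-32075792_R, starts 19308 bp further on and had a difference of 0.26 ± 0.35 (SE) that did not pass.

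A further locus that rose was on the reverse strand of chromosome 6. Region chr6:36790208-36792056_R (1849 bp, 2 member probes of 3 designed) had levels of -2.06, -1.70, -1.90 and -2.34 in Fto -/- samples. In Fto +/+ samples no array had it above background, and the measured levels were -3.70, -3.70, -3.74 and -3.73. The bright mean set against the detection limit made it at least 2.11-fold higher in Fto -/- (limma adjusted p = 0.0017). The region around it, chr6:36765550-36793825_R, held 1 other member probe, which was above background on all arrays and 1.69-fold higher (0.75 ± 0.14, SE; adjusted p = 0.0363). This call was kept in 3 of the 8 fits without 1 array.

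On the forward strand of chromosome 4, the 702 bp region chr4:149445201-149445902_F had levels of -1.11, -0.95, -1.33 and -0.87 in Fto -/- and -2.56, -2.84, -2.65 and -2.88 in Fto +/+ samples. It was 3.18-fold higher (1.67 ± 0.13, SE; limma adjusted p = 0.00166). Its 3 probes gave 1.27, 1.82 and 1.92 and each passed. They were above background on 2, 2 and 3 of the 4 Fto +/+ arrays, so the size of the rise is uncertain. After normexp correction the difference of this region was 0.86. The longer region that contains it on the same strand, chr4:149383134-149451259_F, has 1 member probe of its own. Its difference of 0.14 ± 0.18 (SE; adjusted p = 0.717) did not pass. Where in the interval that probe lies is not given, and the gap between both regions was not tested. Region chr12:117623500-117643575_R had levels of -1.17, -1.66, -1.62 and -1.68 in Fto -/- and -2.46, -2.73, -2.59 and -2.49 in Fto +/+ samples. It was 2.05-fold higher (1.03 ± 0.14, adjusted p = 0.0144), and its 3 member probes (of 5 designed) gave 0.91, 1.00 and 1.19, all past the threshold.

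The 57226 bp region chr6:129151512-129208737_R held probes of unequal response. Averaged over its 8 member probes (of 10 designed), levels were -0.33, -0.72, -0.73 and -0.63 in Fto -/- and -2.10, -1.63, -1.74 and -1.83 in Fto +/+ samples, a 2.33-fold rise (1.22 ± 0.14, SE; limma adjusted p = 0.00851). Yet 3 probes gave 2.28, 2.32 and 2.37 and passed, while the other 5 gave 0.41 to 0.84 and did not. The 3 were above background on all 4 Fto -/- arrays and on 0 or 1 of the Fto +/+ arrays, which makes the one with 0 (A_30_P01018888) at least 3.95-fold higher. The 5 had their highest Fto +/+ level on replicate 2 in 5 of 5 probes and their lowest Fto -/- level on replicate 2 in 4 of 5, and the 3 did so in 0 of 3. The T cell marker level was likewise highest in Fto +/+ replicate 2 (1.65) and lowest in Fto -/- replicate 2 (-1.25) of their genotypes. It was high in Fto -/- replicate 3 (1.82), where probe A_30_P01027568 had its lowest Fto -/- level (0.02). Endothelial, fibroblast, brown adipocyte and macrophage marker levels were also lowest in Fto -/- replicate 2 of their genotype, but none was highest in Fto +/+ replicate 2. What part any of these has in the probes was not tested. With only the 4 probes that were above background on all 8 arrays, the region's difference was 0.49 (adjusted p = 0.206).

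The only fall that held in all 8 fits was that of chr5:144519149-144527843_F (8695 bp, 1 member probe of 2 designed). Its levels were -2.05, -1.96, -1.92 and -1.93 in Fto -/- and -1.22, -1.26, -1.34 and -1.31 in Fto +/+ samples, a tight 1.60-fold difference (-0.68 ± 0.08, SE; limma adjusted p = 0.00983). The overlapping region chr5:144517700-144526071_F had a difference of the opposite sign, 0.84 ± 0.35 (SE; adjusted p = 0.241), that did not pass. All 7 regions also passed after normexp background correction, which adds an offset of 50 and so compresses dim probes: there the rises were 0.53 to 1.81 and the fall -0.40. With slide row as a block, chr5:144519149-144527843_F (adjusted p = 0.0617) and chr12:117623500-117643575_R (adjusted p = 0.0805) no longer passed. Without the Rag1 arrays the 6 rises were 0.85 to 2.40 and the fall -0.67.

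**Figure D2:**
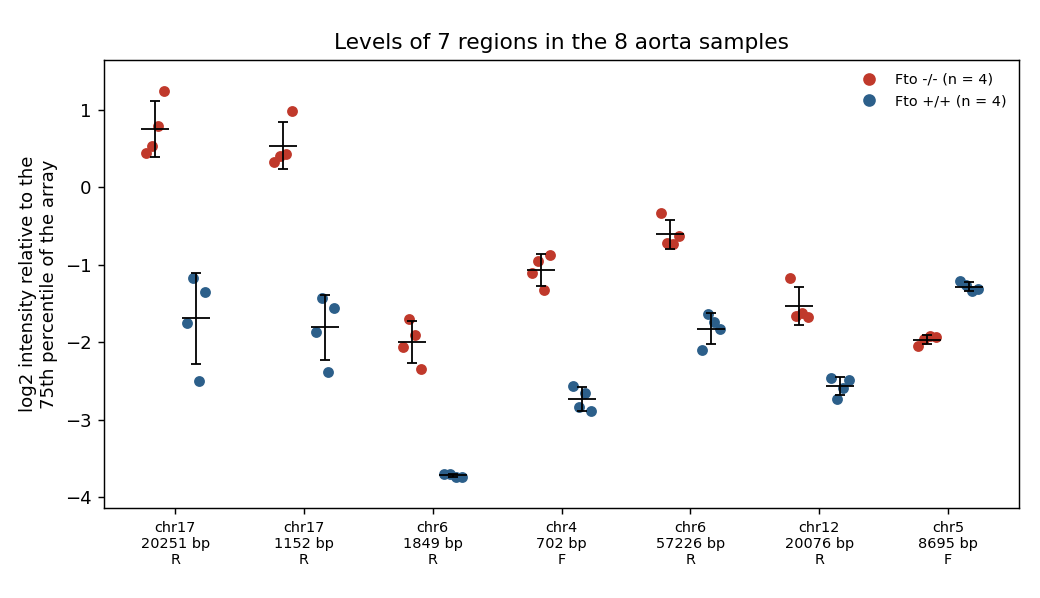
Log2 intensity relative to the 75th percentile of the array (y axis) for the 7 regions whose call held without any single array, named by chromosome, length and strand (x axis). Points are the 4 Fto -/- (red) and 4 Fto +/+ (blue) samples, black bars the mean and SD; the genotypes do not overlap in any of the 7, and the Fto +/+ values of the 1849 bp region on chromosome 6 are below the detection limit.

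The other rises past 2-fold were less secure. Region chr17:29183003-29217681_R was 2.54-fold higher (1.34 ± 0.25, SE; limma adjusted p = 0.0386), with levels of -1.72, -1.82, -1.66 and -1.72 in Fto -/- and -3.48, -3.65, -2.61 and -2.56 in Fto +/+ samples. Its 4 probes disagreed, at 0.20, 0.38, 2.17 and 2.62, and the call was kept in 1 of the 8 fits without 1 array (that without Fto +/+ replicate 4). The probe with the highest difference had 0 of 4 Fto +/+ arrays above background and was at least 3.02-fold higher. The probe at 2.17 had 1 of 4 Fto +/+ arrays above background, so the size of the region's rise is uncertain. With only probes above background on all 8 arrays, the region's difference was 0.20 (limma adjusted p = 0.668). Region chr8:122712014-122732520_R, with 1 member probe of 5 designed, had levels of 2.99, 2.78, 3.21 and 3.34 in Fto -/- and 2.41, 1.86, 2.11 and 1.72 in Fto +/+ samples. It was 2.08-fold higher (1.05 ± 0.18, adjusted p = 0.0308) and the call was kept in 3 of 8 such fits. Smaller rises with at least 2 probes past the threshold were 1.81-fold in chr10:39666719-39679959_R (0.86 ± 0.13; 2 of 3 probes), 1.64-fold in chr4:116791819-116798263_R (0.71 ± 0.12; 2 of 2 probes) and 1.57-fold in chr12:81217572-81233910_R (0.65 ± 0.11; 2 of 4 probes). These 3 had adjusted p-values of 0.0238, 0.0328 and 0.0287, and no overlap between genotypes, and their calls were kept in 2, 1 and 2 of the 8 fits. The remaining 9 called rises, which include chr6:36765550-36793825_R, lie between 0.55 and 0.97. Of these, chr1:138518674-138521227_R and chr1:87613025-87631604_F, chosen here after their values were seen, had 0 of 4 Fto +/+ arrays above background, which bounds their rises at 1.70-fold or more and 1.32-fold or more.

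Among the falls, that of chr10:96103732-96103867_F was the largest. This 136 bp region with 1 probe had levels of -2.92, -3.27, -3.67 and -2.71 in Fto -/- and -1.87, -1.69, -1.99 and -0.93 in Fto +/+ samples, 2.88-fold lower in Fto -/- (-1.52 ± 0.28, SE; limma adjusted p = 0.0363). It was above background on 2 of the 4 Fto -/- arrays. About 5 kb away (5109 bp) on the same strand, chr10:96098058-96098623_F, with 3 probes, had a difference of -0.91 ± 0.21 (adjusted p = 0.0702) that did not pass. Region chr4:114631940-114632618_R had 0 of 4 Fto -/- arrays above background (measured levels -3.40, -3.79, -3.70 and -3.33) and lay at -2.23, -2.88, -2.68 and -2.31 in Fto +/+ samples, at least 1.67-fold lower in Fto -/- (adjusted p = 0.0308).

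A locus on the reverse strand of chromosome 18 fell in overlapping regions. Region chr18:75518299-75524782_R, with 1 member probe, had levels of 0.35, 0.40, 0.07 and 0.21 in Fto -/- and 1.23, 1.49, 0.91 and 1.37 in Fto +/+ samples, 1.99-fold lower (-0.99 ± 0.14, SE; limma adjusted p = 0.0198). The overlapping chr18:75513062-75523889_R held 4 member probes. Of these, 2 fell and passed on their own (-0.95 and -0.82) and the other 2 gave -0.06 and 0.15, so its mean difference of -0.42 did not pass (adjusted p = 0.182). A similar split was found in chr3:36280098-36347798_R, where 2 of 6 probes fell (-0.77 and -0.66), the other 4 gave -0.35 to 0.21, and the mean of -0.28 did not pass (adjusted p = 0.218). Only in chr6:42659063-42660071_R did every probe of a multi-probe region fall past the threshold. Its 3 probes gave -0.69, -0.65 and -0.61, and its levels were -0.77, -1.03, -0.78 and -0.64 in Fto -/- and -0.09, -0.04, -0.17 and -0.32 in Fto +/+ samples (1.57-fold, adjusted p = 0.032). The other named falls were -0.97 in chr4:11899775-11931875_F, -0.87 in chr2:84427252-84428277_R and -0.75 in chr12:53669892-53710742_F, with adjusted p-values of 0.0278, 0.0311 and 0.0366. In chr4:11899775-11931875_F the called probe (-1.30) was above background on 0 of 4 Fto -/- arrays, so its fall is known only as at least 1.71-fold. The other member probe of that region gave -0.65 and did not pass (limma adjusted p = 0.307). Of the 11 falls, 6 passed in only 1 of the 8 fits without 1 array, among them those of chr10:96103732-96103867_F, chr6:42659063-42660071_R and chr12:53669892-53710742_F, and that of chr18:75518299-75524782_R passed in 4.

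The called regions with another called region nearby were nested pairs. Within 100 kb, 24 of the 31 had another member region and 4 had another called one, and these 4 are the nested pairs on chromosomes 17 and 6. Over all member regions 1.482% were called, and how often uncalled regions have a called neighbour was not computed. Of the 44 pairs of a called region and an uncalled neighbour, on the same or the opposite strand, 27 had differences of the same sign. The same share among uncalled regions was not computed. Some overlapping regions on the same strand moved alike without passing: chr4:11893711-11921443_F had a difference of -0.63 ± 0.13 (SE; limma adjusted p = 0.0539) beside the called chr4:11899775-11931875_F, and chr19:23068397-23190256_F had 0.92 ± 0.24 (adjusted p = 0.0995) beside the called chr19:23064968-23069896_F (0.84 ± 0.12, adjusted p = 0.0199).

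Probes of the same region agreed in part. The 990 regions with at least 2 member probes gave 3824 pairs of probes. Over the 8 arrays, the median correlation of the pairs in a region was 0.588 in the median region, and ran from -0.286 at the 5th to 0.971 at the 95th percentile of regions. It was above 0.8 in 286 regions and below 0 in 129. With genotype means removed, the median was 0.582. The points of each correlation are the same 8 arrays, whose scaling all probes share. Genotype differences had the same sign in 72.67% of pairs, with a correlation of 0.62 across pairs, which are not independent of each other. The median absolute gap between the differences of a pair was 0.132.

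Agreement went with detection. The 2703 pairs whose probes were both above background on all 8 arrays had the same sign in 74.81%, a median correlation of 0.745 and a median gap of 0.104. The other 1121 pairs had 67.53%, 0.504 and 0.259. When the gap itself was tested by limma over all 7862 pairs of probes with the same identifier on the array, 0 pairs passed, among members and over all pairs (0% called). At an unadjusted p under 0.05 there were 402 member pairs (10.51%), and the smallest adjusted p was 0.0707. After normexp correction 6 of the 3824 member pairs passed, against 8 of all 7862. Among probes above background on all 8 arrays 2 of 2703 member pairs passed, against 18 of all 6226. Of the 47 regions that held a called probe, 12 held at least 2, none of the 47 held calls in both directions, and 18 were not called as a region.

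**Figure D3:**
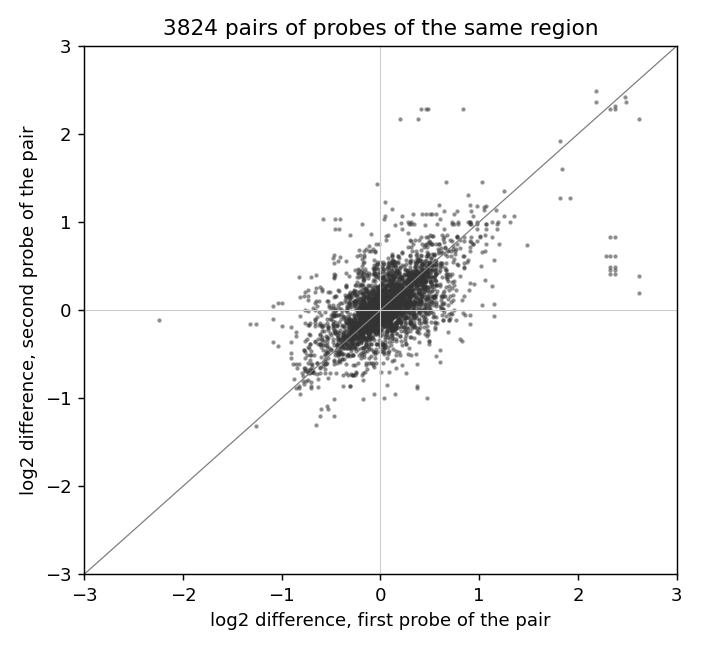
Log2 genotype difference (Fto -/- minus Fto +/+) of the second probe (y axis) against the first probe (x axis) for 3824 pairs of member probes of the same region, with the line of equality. Most pairs lie near the origin, 72.67% share their sign, and the groups of points near 2.3 on one axis and below 1 on the other come from regions whose probes part.

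The regions described next were chosen for the widest gaps between their probes, and none of these gaps passed with the processed signals. In chr17:3198868-3394643_F, 195776 bp long, all 5 member probes (of 10 designed) were above background on all 8 arrays. Yet 3 had negative differences (-0.59, -0.46 and -0.41) and 2 positive ones (0.60 and 1.03), of which only the last passed. The mean of 0.04 ± 0.14 (SE) stood beside a gap of -1.62 ± 0.26 between the extreme probes, whose correlation was -0.75. This gap had an unadjusted p of 0.000257 and an adjusted p of 0.096, and 4 of the 6 pairs that passed after normexp, and both that passed among probes on all arrays, were of this region. The other wide gaps were 2.42 in chr17:29183003-29217681_R, 1.96 in chr6:129151512-129208737_R, 1.47 in chr2:72818943-72826893_F and 2.13 in chr10:120336296-120354471_F. In the last 2, the extreme probe was above background on 1 of 4 Fto -/- arrays (in chr10:120336296-120354471_F its difference was -2.24).

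**Figure D4:**
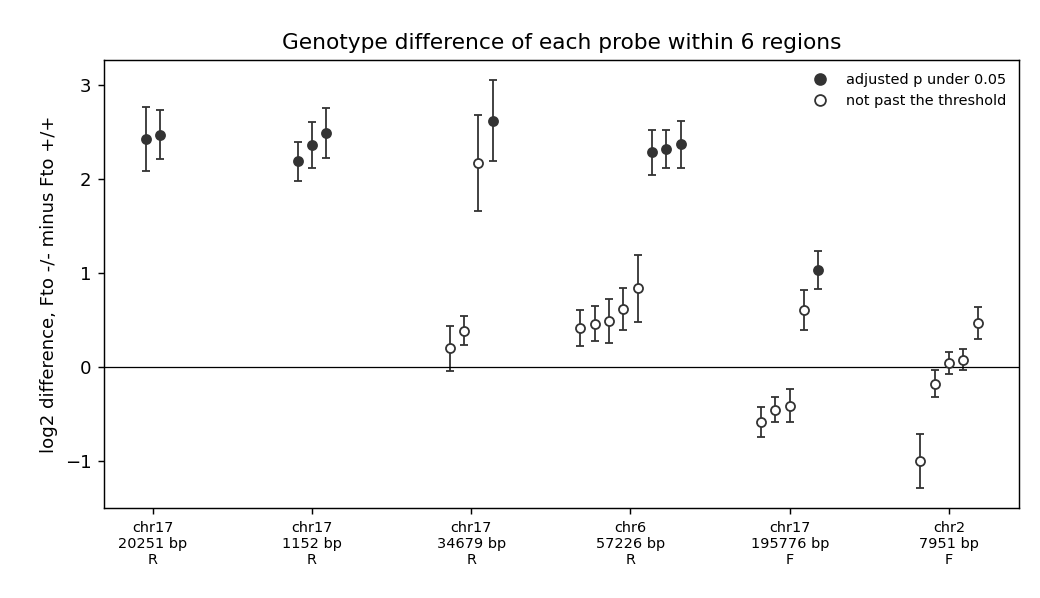
Log2 genotype difference (y axis, Fto -/- minus Fto +/+) of each member probe, with its SE, in 6 regions named by chromosome, length and strand (x axis); filled points passed limma's threshold. The probes of both nested regions on chromosome 17 (20251 and 1152 bp) lie together between 2.19 and 2.49, and those of the other 4 regions, chosen for their wide gaps, span wider ranges.

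The regions with the most member probes, where a mean rests on 9 or 10 probes, showed no genotype difference past the threshold. In chr17:26911397-26917047_F the 10 probes gave -0.14 to -0.01 and the region -0.07 ± 0.12 (SE), with a median pair correlation of 0.923. In chr16:43623581-43642715_F the region gave 0.11 ± 0.14, in chr4:129497990-129515290_F -0.11 ± 0.14 and in chr3:126989696-127112471_R (9 probes) -0.23 ± 0.15. In the 77051 bp region chr19:5771425-5848475_F the 10 probes gave -0.32 to 0.34 around a mean of 0.01 ± 0.10, with a median pair correlation of only 0.0585. Limma's adjusted p-values of the 5 were 0.442 to 0.981.

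Both strands of an interval were often covered by probes. Of 1067 intervals with probes on both strands, 300 (28.12%) had members on both, 490 (45.92%) on 1 strand and 277 on neither. In the 490, the forward strand was the member in 214 and the reverse strand in 276. For the 300, the correlation of the strands over the 8 arrays had a median of 0.208, and their genotype differences had the same sign in 52.33%. The median absolute gap was 0.229. In 4 of the 300 intervals 1 strand was called and in 0 both. With 1.482% of all member regions called, these counts do not tell whether the strands respond alike. The 6 intervals with the most member probes on both strands had correlations of 0.345 to 0.849. In chr7:99879368-99889978, 8 reverse probes gave 0.33 to 1.09 (region mean 0.58 ± 0.16, SE; limma adjusted p = 0.101; 1 probe past the threshold) and 5 forward probes a mean of 0.08 ± 0.20 (adjusted p = 0.85). In chr11:95627874-95640824 both strands gave negative differences, -0.40 ± 0.12 on the reverse and -0.16 ± 0.10 on the forward strand, and neither passed (adjusted p = 0.137 and 0.402).

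Some regions varied widely between samples of 1 genotype. The spread of a region between arrays, as the SD pooled over both genotypes, had a median of 0.252 and a 95th percentile of 0.587. The largest among regions with at least 2 member probes was 1.36, in chr5:23195569-23218551_R. Its levels were -2.21, -0.16, -2.67 and -0.53 in Fto -/- and -0.67, -0.05, -3.04 and -2.73 in Fto +/+ samples, so 2 samples of each genotype were high and 2 low. Its 4 probes did not all follow this: A_30_P01023802 had a difference with an SE of 0.225, whereas the SE of the other 3 was 0.982 to 1.08. In chr4:3169583-3180017_F, Fto -/- replicate 1 (-2.29) and Fto +/+ replicate 3 (-2.43) were low and the other 6 samples lay between -0.76 and -0.31. Its 3 probes moved together, with a median pair correlation of 0.951. In chr10:76114741-76115073_F levels were -0.28, -0.95, -2.19 and -2.62 in Fto -/- and -2.14, -4.68, -1.31 and -2.81 in Fto +/+ replicates, with a median pair correlation of 0.929 over 3 probes. The genotype differences of these 3 probes were large as well, at 1.06, 1.25 and 1.35, and did not pass (limma adjusted p = 0.406 to 0.428). The other 3 of the 6 widest regions had a pooled SD of 0.781 to 0.822. None of the 6 passed the genotype test (limma adjusted p = 0.402 to 0.968).

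**Figure D5:**
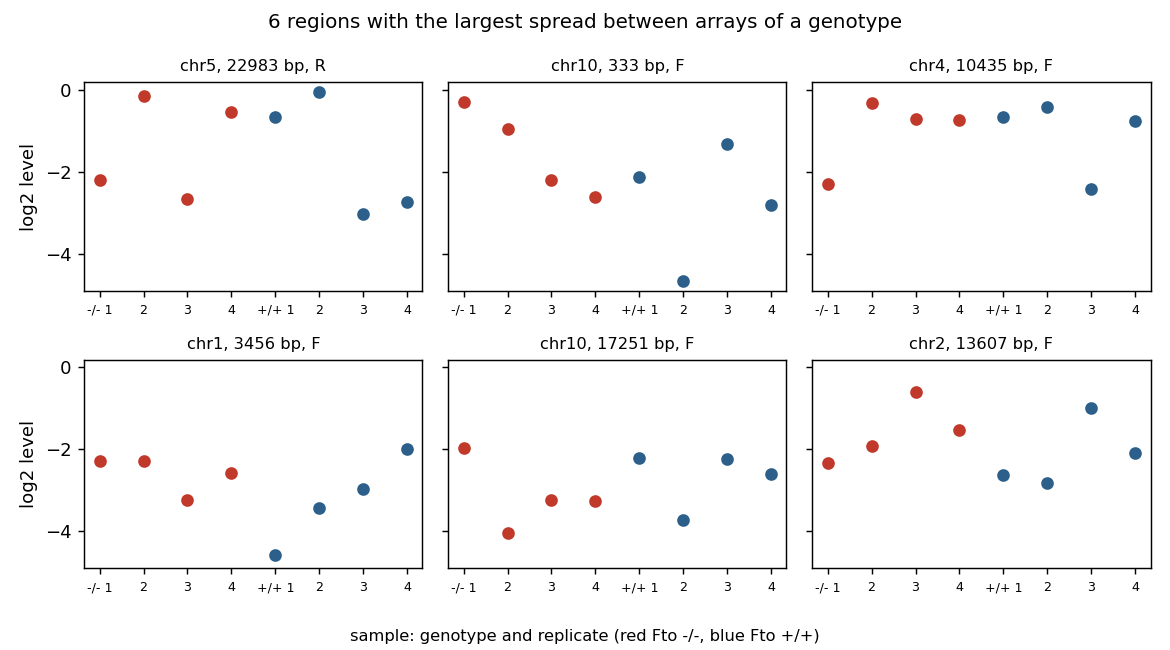
Log2 level relative to the 75th percentile of the array (y axis) in each of the 4 Fto -/- (red) and 4 Fto +/+ (blue) samples (x axis) for the 6 regions with at least 2 member probes and the largest pooled SD, named by chromosome, length and strand. High and low samples occur in both genotypes, as in the chromosome 5 region with 2 of each.

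For comparison, named long noncoding RNAs were taken from a list of 49 genes with known symbols, of which 26 had a tested probe, 6 only probes that were not tested and 17 no probe found by symbol. By the probe of highest mean, 0 of the 26 were higher and 0 lower past the threshold by limma, against 1.69% of all probes tested, and 7 had an unadjusted p under 0.05, against 4842 of all 25288 probes. The median difference was 0.015. Xist, which coats the inactive X chromosome, gave 0.60 ± 0.15 (SE; adjusted p = 0.0904). H19, an imprinted RNA of the Igf2 locus, gave 1.13 ± 0.40 (adjusted p = 0.186), and Snhg3, a host gene of small nucleolar RNAs, -0.73 ± 0.21 (adjusted p = 0.111). Malat1 and Neat1, abundant nuclear RNAs, gave -0.25 ± 0.25 and 0.30 ± 0.20, and Meg3, an imprinted RNA, 0.15 ± 0.14. Of the 2 tested Pvt1 probes, the one that stood for the gene gave 0.28 ± 0.09 (adjusted p = 0.168) and the other passed the threshold.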

How the data were processed

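Scanner files of 8 arrays hold a processed intensity per spot, which the authors' scanner software (Feature Extraction, version 11.0.1.1 per the file headers) made by subtracting background, and which is not scaled between arrays. The deposited series table holds log2 values centred per probe: over 3125 region probes above background on all arrays its columns followed the scanner values (r = 0.9848 to 0.9971, slopes 0.9645 to 1.019; column medians -0.0095 to 0.0049). How it was normalized is not stated in any source used here. Per the file headers the build is mm9.

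Control spots were left out, spots flagged as outliers by the software (5 among members) were set to missing, as was then the region's value on that array, and spots of a probe were averaged. Levels are log2 intensity minus the 75th percentile of the array over 55681 probes. A region's value is the mean of its member probes. The genotype comparison used limma 3.58.1 (lmFit, eBayes) under R 4.3.3, with Benjamini-Hochberg adjustment over all 25288 probes, 19844 identifiers or 7862 probe pairs, threshold 0.05. A value not above background on any array of a genotype is given as a bound: the bright mean against the dim mean, each dim value raised to the lowest level well above background on its array. The fits were tested on simulated data.

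Members, lists and rules were chosen with earlier results of these data known. Regions named are those with at least 2 called probes (at most 12), the 8 largest called rises and falls without overlap, the 5 with most member probes, the 5 with the widest probe gap, the 6 with the largest spread and the 6 strand pairs with most members. Others were chosen after their values were seen. Regions near Fto could not be chosen, as the probe position of Fto is not given in the files used. Alternatives were normexp, quantile normalization, the series table, other filters, region summaries and percentile, slide row and replicate blocks, each slide row, and leaving out each array or the Rag1 arrays. Normexp used the median spot signal, the mean not being among the columns.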

Additional observations from a re-analysis of the deposited data

Results flagged for a closer look

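In 7 of 88 groups of 4 samples among the named regions, 1 sample stood apart from the other 3 by more than Dixon's 95% critical value, which chance gives in about 1 in 20 groups. In chr17:32044823-32045974_R, Fto -/- replicate 4 was at 0.99 and the others at 0.32 to 0.43. In chr12:117623500-117643575_R, Fto -/- replicate 1 was at -1.17 and the others at -1.68 to -1.62. In chr4:116791819-116798263_R, Fto +/+ replicate 1 was at -0.29 and the others at 0.14 to 0.18. In chr16:43623581-43642715_F, Fto -/- replicate 2 was at 3.41 and the others at 3.06 to 3.11. In chr16:43623581-43642715_R, Fto +/+ replicate 4 was at -1.62 and the others at -1.99 to -1.97. In chr11:95627874-95640824_F, Fto +/+ replicate 4 was at 1.06 and the others at 1.31 to 1.34. In chr13:48620882-48643532_R, Fto -/- replicate 3 was at 1.06 and the others at 0.74 to 0.75.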

How the results depend on the processing

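All 31 called regions kept their sign in every alternative in which they had a value (23 of them when all 8 arrays had to be above background). The genotypes did not overlap in any of the 31, so fits on fewer arrays or with blocks could not change a sign. Those fits therefore show nothing about direction. After quantile normalization and with the series table's values, 29 of the 31 passed. Called member probes were 45 higher and 19 lower in the reported fit. They were 29 higher after normexp, 26 higher when all 8 arrays had to be above background, 14 higher and 2 lower with all probes of the array tested, and 13 higher and 1 lower with slide row as a block. Over all probes tested, the first 2 of these settings gave 205 higher of 25288 and 170 higher of 22231. Testing all probes of the array gave 59 higher and 36 lower of 55681, and the row block 33 and 14 of 25288. The replicate numbers did not pair the samples (correlations of same-numbered samples 0.155, -0.024, -0.019 and -0.041), and with them as a replicate block 17 probes were higher and 7 lower. The fits within slide row 1, within slide row 2 and without the Rag1 arrays (added after seeing the data) leave 1 genotype with 1 sample. That sample is assumed to vary like the other genotype, so the number passing in these 3 fits does not tell whether a call holds. Leaving out 1 array gave 18 to 109 higher and 2 to 40 lower. For regions (20 higher, 11 lower) these counts were 14 and 7 after normexp, 6 and 1 with all probes tested and 6 and 0 with the row block. With the replicate block they were 8 and 4 (9 shared with the 31 calls, without chr6:129151512-129208737_R and chr5:144519149-144527843_F). Leaving out 1 array gave 7 to 59 and 1 to 17, the most without Fto +/+ replicate 4. Over all 19844 identifiers, 171 higher and 178 lower in the reported fit became 188 and 207 after normexp. They became 24 and 10 with the row block and 73 and 33 with the replicate block. Testing all probes gave 49 and 36 of 37897 identifiers. Probe pairs went from 0 to 6 after normexp and 2 with all 8 arrays above background. The cause of these changes was not tested.

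No region that changed sign passed the threshold in any setting. Differences of the opposite sign were found in slide row 1 for chr4:129497990-129515290_F (0.112), chr3:126989696-127112471_R (0.201), chr5:23195569-23218551_R (-1.01), chr4:3169583-3180017_F (-0.452), chr7:99879368-99889978_F (-0.248) and chr13:48620882-48643532_F (-0.164). In row 2 they were found for chr16:43623581-43642715_F (-0.0799), chr16:43623581-43642715_R (-0.0322), chr19:5771425-5848475_F (-0.0213) and chr17:3198868-3394643_F (-0.114). With the row block they were -0.0219 for chr7:99879368-99889978_F and -0.0447 for chr13:48620882-48643532_F. Without the Rag1 arrays they were 0.138 for chr17:26911397-26917047_F, 0.231 for chr4:129497990-129515290_F, -0.00264 for chr2:136327645-136341251_F, -0.292 for chr7:99879368-99889978_F and -0.212 for chr13:48620882-48643532_F. For chr19:5771425-5848475_F and chr13:48620882-48643532_F they were -0.0253 and -0.00336 after quantile normalization, -0.026 and -0.00401 with the series table, and -0.0398 and -0.0234 with the median of the probes. That median gave -0.458 for chr17:3198868-3394643_F and 0.247 for chr2:72818943-72826893_F. The probe of highest mean alone gave -0.165 for chr19:5771425-5848475_F, -0.586 for chr17:3198868-3394643_F, 0.0399 for chr2:72818943-72826893_F, -0.118 for chr4:3169583-3180017_F, -0.0298 for chr16:43623581-43642715_R and -0.117 for chr7:99879368-99889978_F. Normexp gave -0.0536 for chr17:3198868-3394643_F. Requiring all 8 arrays gave 0.101 for chr2:72818943-72826893_F, -0.118 for chr4:3169583-3180017_F and -0.144 for chr7:99879368-99889978_F. The percentile over detected probes (added after seeing the data) gave 0.00169 for chr17:26911397-26917047_F. Leaving out 1 array gave -0.163 to 0.00563 in chr17:26911397-26917047_F, -0.0427 to 0.0548 in chr19:5771425-5848475_F, -0.0968 to 0.126 in chr17:3198868-3394643_F, -0.241 to 0.755 in chr5:23195569-23218551_R, -0.404 to 0.478 in chr4:3169583-3180017_F, -0.0531 to 0.165 in chr16:43623581-43642715_R, -0.099 to 0.195 in chr7:99879368-99889978_F and -0.0714 to 0.13 in chr13:48620882-48643532_F. Array number and the low signal of many members limit the precision.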

Other observations

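The 6 largest region differences that did not pass the threshold, chosen after their values were seen, each rested on 1 member probe. In chr6:67052066-67119366_R, Fto -/- replicate 1 was at 5.64 and the other 7 samples between -2.01 and -1.46. In chr18:69923410-69965360_F, Fto -/- replicate 2 was at 2.86 and the other 7 between -1.08 and 0.01. In chr10:84010161-84016083_R the same sample was at 2.44 and the other Fto -/- samples at -2.79 to -2.46, with no Fto +/+ array above background. In chr1:160888257-160910594_R, Fto -/- replicate 4 was at 0.05 and the others of its genotype at -2.76 to -2.09, again with no Fto +/+ array above background. The other 2 were lower in Fto -/-. In chr15:74474704-74474770_F, levels were -5.01, -2.65, -3.95 and -4.50 in Fto -/- and -2.61, -1.60, -2.38 and 0.58 in Fto +/+ replicates 1 to 4. In chr3:145390505-145398253_F they were -5.53, -5.20, -4.38 and -2.62 against -5.28, 0.30, -0.65 and -2.02. Their limma adjusted p-values were 0.102 to 0.537.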
